A study of Mus musculus with 3 samples.

Results

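The 8 transcripts *Gm428*, *Gm4340*, *Gm16367*, *Gm11757*, *Gm11758*, *D13Ertd608e*, *Unc93a* and *E330014E10Rik* were chosen by gene name from 35019 gene names or identifiers on the array, because their signal had been seen to go up steeply in mouse ES cells soon after the deletion of *Nr0b1* and again in established knockout cells. They were covered by 10 of 55681 probes, each printed in 1 spot, and all 8 passed the filter on dim probes together with 22435 other genes. Since these comparisons were what the members were chosen on, their differences are a description, and a count of members past the limits used for all genes was fixed by the choice and is no result. RNA was measured on 9 Agilent 1-colour arrays, 3 for each of 3 groups. *Nr0b1* KO/Y ES cells were established knockout cells, whose time in culture since the deletion is not given. *Nr0b1* fl-/Y +Tx ES cells had been treated with 4-hydroxy tamoxifen (Tx) for 4 days, and *Nr0b1* fl-/Y −Tx ES cells kept the floxed exon. All groups came from the male EB5 line and carried piggyBac transgenes for constitutive *MerCreMer*, a Cre recombinase that Tx activates, and for *Egfp*, so none was free of the recombinase and only the +Tx cells had just been exposed to Tx. The study calls the arrays biological triplicates, but which array holds which replicate is not given in the sources used here, and the p-values below measure the spread between arrays.

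*Nr0b1* (*Dax1*) encodes an orphan nuclear receptor that lacks the usual DNA-binding domain and acts with other transcription factors in ES cells. A small number of cells in an ES cell culture pass through a state that resembles the 2-cell embryo, in which *Zscan4* genes, *Tcstv* genes and other products of early zygotic transcription are switched on. Many of these genes sit in tandem arrays of near-identical copies, and most members described here are named only by a predicted-gene or clone number. *Unc93a* is the exception, a multi-pass membrane protein related to UNC-93 of *Caenorhabditis elegans*. In bulk RNA, more cells in such a state and more RNA per cell cannot be told apart.

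What a probe of such a family reports depends on its letters. *Gm16367* and the brightest of 3 probes for *E330014E10Rik* are shown because their 60-base probes overlapped by 59 bases, of which 56 were identical. Capitals mark the 3 bases that differ, and the other *E330014E10Rik* probe is shown because it did not follow them.
Gm16367: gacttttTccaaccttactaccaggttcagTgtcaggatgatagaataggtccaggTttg
E330014E10Rik, brightest: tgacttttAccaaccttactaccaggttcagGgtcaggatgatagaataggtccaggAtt
E330014E10Rik, second: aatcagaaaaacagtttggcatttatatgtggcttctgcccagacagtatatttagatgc
In the array annotation, which uses the mm9 build, all of these probes lie on the minus strand of unplaced sequence, at chrUn_random:2205105-2205164 for *Gm16367*, chrUn_random:1663107-1663166 for the brightest and chrUn_random:1663204-1663263 for the second *E330014E10Rik* probe. RefSeq places both genes on chromosome 5. Besides the gene it is named for, the annotation lists transcripts of *Gm16513* and *Pramel42* for the *Gm16367* probe, of *Gm3286* for all 3 *E330014E10Rik* probes, of *Pramel48* for the second one and of *Gm16367* itself for the third, so a signal cannot be given to 1 copy. *Pramel* genes encode leucine-rich proteins related to the human tumour antigen PRAME.

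The same holds on chromosome 4, where the probe of *Gm11758* (mm9, chr4:73518349-73518408) and that of *Gm11757* (chr4:73533694-73533753) are both also assigned to *Gm11756* and *Gm13871*, the *Gm11757* probe to *Gm428* too and the *Gm11758* probe to *Gm11757* too, so these members are not separate measurements of separate genes. The *Gm428* probe (chr4:73333363-73333422) is listed for *Gm428* alone. In RefSeq (GRCm38.p6) the promoter windows of these 3 genes, 300 bases each that span the start of the gene, were nearly alike: those of *Gm428* and *Gm11758* shared 291 bases, and that of *Gm11757* shared 268 of 268 aligned bases with *Gm11758*. The first pair is shown with the 9 differing bases in capitals, for *Gm428* at chr4:73683264-73683563 on the plus strand and for *Gm11758* at chr4:73876217-73876516 on the minus strand.
Gm428: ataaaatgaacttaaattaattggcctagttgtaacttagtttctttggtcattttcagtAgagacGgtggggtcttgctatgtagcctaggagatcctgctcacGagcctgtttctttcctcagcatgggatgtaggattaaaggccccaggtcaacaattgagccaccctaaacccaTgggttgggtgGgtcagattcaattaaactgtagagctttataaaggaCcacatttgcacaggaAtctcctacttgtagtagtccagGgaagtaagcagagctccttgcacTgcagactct
Gm11758: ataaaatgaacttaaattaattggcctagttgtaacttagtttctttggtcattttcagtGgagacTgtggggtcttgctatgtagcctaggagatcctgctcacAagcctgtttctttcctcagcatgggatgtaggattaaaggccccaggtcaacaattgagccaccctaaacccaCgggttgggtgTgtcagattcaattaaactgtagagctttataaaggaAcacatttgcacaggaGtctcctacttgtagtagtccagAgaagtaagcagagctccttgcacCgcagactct
Of the 8 members, 6 had such a window. The letters TCAAGGTCA and TCAAGGCCA, to which the ES cell nuclear receptors Esrrb and Nr5a2 bind, and the shorter AAGGTCA, which lies inside TCAAGGTCA, were found on neither strand of the 6 windows. They occurred in 0.423%, 0.591% and 4.72% of all 32851 windows. TATAAA was found in the windows of *Gm428*, *Gm11757* and *Gm11758*, and in 13.6% of all windows.

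The *Nr0b1* probe checked the labels. Values are log2 signals relative to the 75th percentile of the array, so that a negative value is below that level. *Nr0b1* stood at -6.37, -6.20 and -6.22 in KO/Y, at -2.58, -2.66 and -2.42 in +Tx and at 4.02, 4.18 and 4.10 in −Tx ES cells. Each array had 28820 to 32516 probes well above background and 0 saturated spots. The KO/Y arrays lay on 1 slide with +Tx arrays 2 and 3, and the −Tx arrays on another with +Tx array 1, so no slide held both KO/Y and −Tx arrays.

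In KO/Y against −Tx ES cells all 8 members were past the limits used for all genes (over 2-fold and an adjusted p under 0.05 in limma's fit), as 4.72% of 22443 genes were. In +Tx against −Tx ES cells the same held for all 8, against 1.75% of genes. The members had been chosen for these differences, so nothing is read from these counts. The KO/Y and −Tx groups differed by a median log2 of 5.42 over the members and by -0.06 over all genes, and the +Tx and −Tx groups by 3.88 over the members and by -0.06 over all genes. With the 4 members that −Tx ES cells gave only a bound for set at that bound, the medians were 4.57 and 3.09. Normexp background correction, which raises dim signals, left medians of 2.98 and 1.68 over the members.

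**Figure D1:**
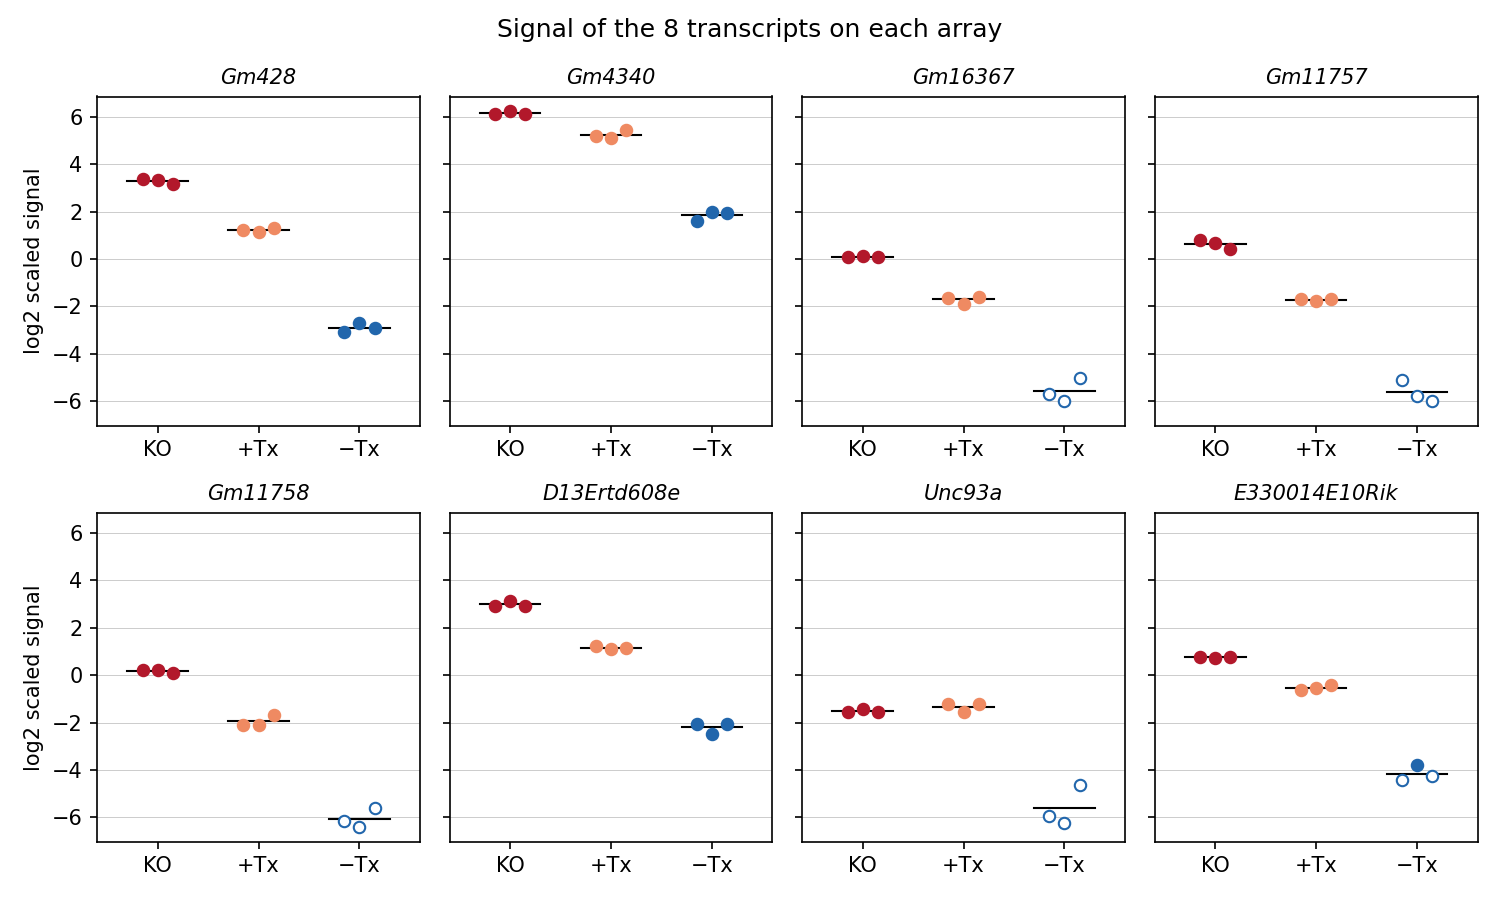
Log2 scaled signal of the brightest probe of each transcript on each array, with KO/Y, +Tx and −Tx ES cells from left to right. Filled points were well above background, open points were not, and black lines are group means. Every −Tx point lies below every point of the other groups, and *Unc93a* alone has overlapping KO/Y and +Tx points.

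*Gm428* was well above background on all 9 arrays. It gave 3.39, 3.35 and 3.14 in KO/Y, 1.22, 1.12 and 1.32 in +Tx, and -3.06, -2.71 and -2.92 in −Tx ES cells. The 3 groups were far apart and each was tight. The log2 difference was 6.19 ± 0.109 (SE) for KO/Y over −Tx, or 73.2-fold, and 4.12 ± 0.109 for +Tx over −Tx, or 17.4-fold. Among 20162 genes well above background on all arrays, no other had a larger difference in either comparison. Among all genes that passed the filter, *Gm428* ranked 3 in KO/Y over −Tx and 5 in +Tx over −Tx. *Gm428* had been chosen for these differences, so nothing is read from its ranks. KO/Y over +Tx was 2.07, or 4.21-fold.

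*Gm11758* and *Gm11757*, on the opposite strand and 185.0 and 200.3 kb from the *Gm428* probe, were not well above background on any −Tx array. *Gm11758* gave 0.24, 0.22 and 0.09 in KO/Y, -2.08, -2.09 and -1.66 in +Tx, and -6.14, -6.40 and -5.61 in −Tx ES cells. *Gm11757* gave 0.79, 0.68 and 0.43 in KO/Y, -1.68, -1.79 and -1.68 in +Tx, and -5.12, -5.76 and -6.01 in −Tx ES cells. Both ran in the same order of groups as *Gm428* with no overlap between groups. A fold against such a group is given as a bound. The mean of the brighter group is set against the dimmest signal still well above background on each array of the other group. The probe's own signal is used instead where it is brighter. That dimmest signal is taken over all probes. Some brighter signals were not well above background, so the bound is not strict. *Gm11758* was at least 20.3-fold higher in KO/Y and at least 4.64-fold higher in +Tx than in −Tx ES cells. *Gm11757* was at least 27.7-fold higher in KO/Y and at least 5.44-fold higher in +Tx than in −Tx ES cells. Both were measured in KO/Y and +Tx ES cells, where they differed by 4.37-fold and 5.10-fold.

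Few genes around the members could be measured. Of 45 other genes or unnamed transcripts with a probe within 500 kb of a member placed on the mm9 chromosomes, 27 passed the filter, 5 of them on chromosome 4, 1 near *Gm4340* on chromosome 10 and 21 around *Unc93a* on chromosome 17. Of the 27, 0 were called higher or lower in any of the 3 comparisons by limma, where 4.72%, 1.75% and 2.37% of all genes were called higher in KO/Y over −Tx, +Tx over −Tx and KO/Y over +Tx, and nothing is read from a count of 0 among so few. Before adjustment, 6 were higher and 10 lower in KO/Y than in −Tx ES cells with p under 0.05, 5 and 6 in +Tx than in −Tx, and 2 and 6 in KO/Y than in +Tx. The share of all genes at this unadjusted limit is not given here, so nothing is read from these counts either. In KO/Y over −Tx the log2 differences of all 27 ran between -0.87 and 0.78. *Gm11240*, which lies between *Gm428* and *Gm11758* in the RefSeq order, averaged 2.88 in KO/Y and 2.59 in −Tx ES cells, a difference of 0.29 (adjusted p = 0.00605). *Frmd3*, a FERM-domain gene 500.4 kb from the *Gm428* probe, differed by -0.05 (adjusted p = 0.783). *Rasef* and *2310002L09Rik* were on the array but did not pass the filter.

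**Figure D2:**
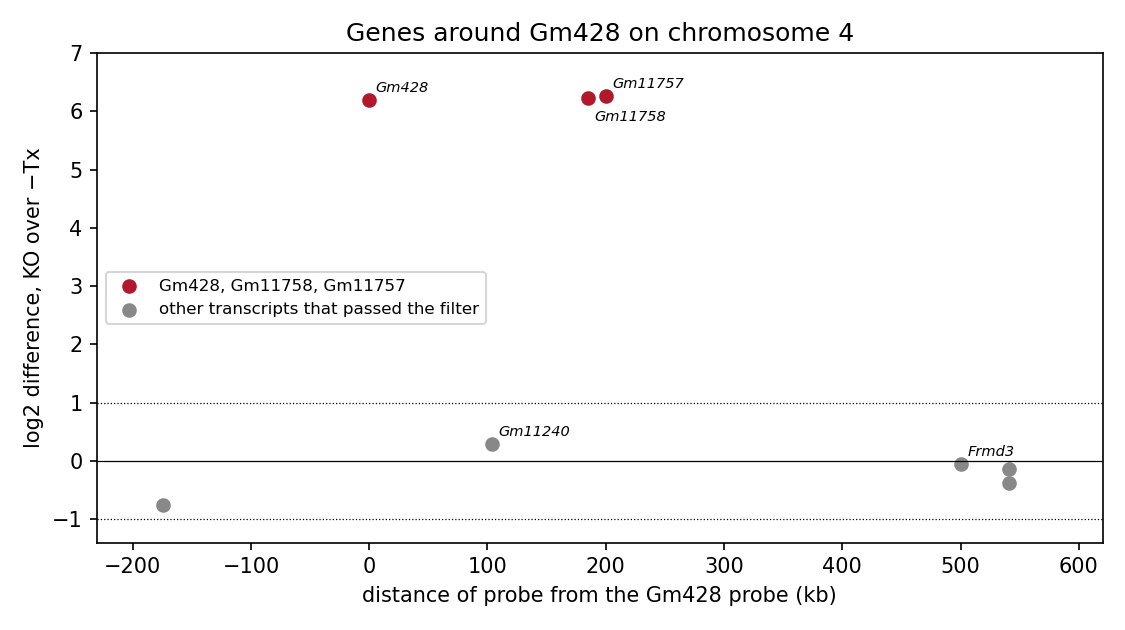
Log2 difference of KO/Y over −Tx ES cells against the distance of each probe from the *Gm428* probe on chromosome 4. Red points are *Gm428*, *Gm11758* and *Gm11757*, with fitted differences all above 6 (those of *Gm11758* and *Gm11757* rest on −Tx signals not well above background), grey points are the other transcripts that passed the filter, and dotted lines mark 2-fold. No grey point lies beyond 2-fold.

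*Gm4340*, which the study lists as *Thoc4/Gm4340* among 2-cell specific transcripts up-regulated in +Tx ES cells, was well above background on all 9 arrays. It gave 6.13, 6.22 and 6.11 in KO/Y, 5.19, 5.11 and 5.44 in +Tx, and 1.60, 1.98 and 1.94 in −Tx ES cells. Most of its difference was already there after 4 days: +Tx over −Tx was 3.41 ± 0.121 (SE), or 10.6-fold, and KO/Y over −Tx was 4.32 ± 0.121, or 19.9-fold. KO/Y over +Tx was 0.91, or 1.88-fold, short of the 2-fold limit although the groups did not overlap. A probe with no gene name whose letters matched 54 of 55 aligned bases of the *Gm4340* probe gave 4.26 for KO/Y over −Tx, 3.41 for +Tx over −Tx and 0.85 for KO/Y over +Tx, and the RNA caught by probes so alike cannot be told apart.

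*Gm4340* closes a row of near-copies on chromosome 10 in the RefSeq order, after *Gm21293*, *Gm6763*, *Gm8764*, *Gm21304*, *Gm21312* and *Gm20765*. Its promoter window matched those of 30 other genes over at least 200 bases at 70% identity or more, of which 5 copies in that row were identical over the aligned bases. The rest lay mostly on other chromosomes. One of them was *Sp110*, which encodes a nuclear body protein. The 2 windows are shown with their longest shared run of 100 bases in capitals, a run held by 7 of 32851 windows (0.0213%), for *Gm4340* at chr10:104193792-104194091 on the plus strand and for *Sp110* at chr1:85603842-85604141 on the minus strand of GRCm38.p6.
Gm4340: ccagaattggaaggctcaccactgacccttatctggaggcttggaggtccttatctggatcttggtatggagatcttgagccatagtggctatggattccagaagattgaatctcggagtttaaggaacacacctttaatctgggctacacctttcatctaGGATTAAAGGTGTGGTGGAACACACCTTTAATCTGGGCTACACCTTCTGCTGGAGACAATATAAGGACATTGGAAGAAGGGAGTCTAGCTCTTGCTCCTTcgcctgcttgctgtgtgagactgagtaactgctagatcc
Sp110: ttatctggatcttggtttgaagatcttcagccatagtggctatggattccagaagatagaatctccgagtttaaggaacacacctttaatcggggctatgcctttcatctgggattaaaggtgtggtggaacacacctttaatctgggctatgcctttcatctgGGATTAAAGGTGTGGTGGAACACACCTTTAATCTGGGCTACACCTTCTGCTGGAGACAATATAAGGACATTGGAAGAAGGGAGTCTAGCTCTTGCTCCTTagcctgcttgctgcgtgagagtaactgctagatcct

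Of these 30 genes 11 were on the array and 8 passed the filter. With the brightest probe for each gene, 2 of 8 were called higher in KO/Y than in −Tx ES cells and 0 lower, where 4.72% of all genes were called higher. *Pramel17*, whose window was 87.9% identical, averaged -1.86 in KO/Y and -6.20 in −Tx ES cells, at least 4.94-fold higher (adjusted p = 4.74e-07). *D17Ertd648e*, at 94.4% identity, was at least 1.44-fold higher in KO/Y than in −Tx ES cells (adjusted p = 4.45e-06). That bound is short of the 2-fold limit, so the call of *D17Ertd648e* rests on −Tx signals that were not well above background. The brightest probes of *Sp110* and of *Pemt*, a phosphatidylethanolamine methyltransferase with 96.6% identity, were not called. The count was 1 with normexp background correction, 0 where each of the 9 arrays had to be above background and 4 with the mean of a gene's probes. The other probes of *Sp110* and *Pemt* were looked at after these values were seen. 1 *Sp110* probe gave 1.12, 1.23 and 0.92 in KO/Y, -0.84, -0.69 and -0.90 in +Tx, and -3.61, -3.63 and -4.00 in −Tx ES cells, a difference of 4.84 for KO/Y over −Tx (adjusted p = 4.30e-08 over all probes). Of its −Tx values, 1 of 3 was well above background. Another *Sp110* probe differed by 2.69 (adjusted p = 2.61e-08), and the brightest by -0.26 (adjusted p = 0.0202). 2 of 3 *Pemt* probes differed by 2.01 (adjusted p = 1.46e-06) and 1.90 (adjusted p = 2.65e-06), and the brightest by 0.99 (adjusted p = 4.56e-05). *Sgk1*, a kinase at 83.7% identity, was lower by less than 2-fold, with a difference of -0.86 (adjusted p = 7.69e-05). A match to the window went with different outcomes in different genes and probes.

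**Figure D3:**
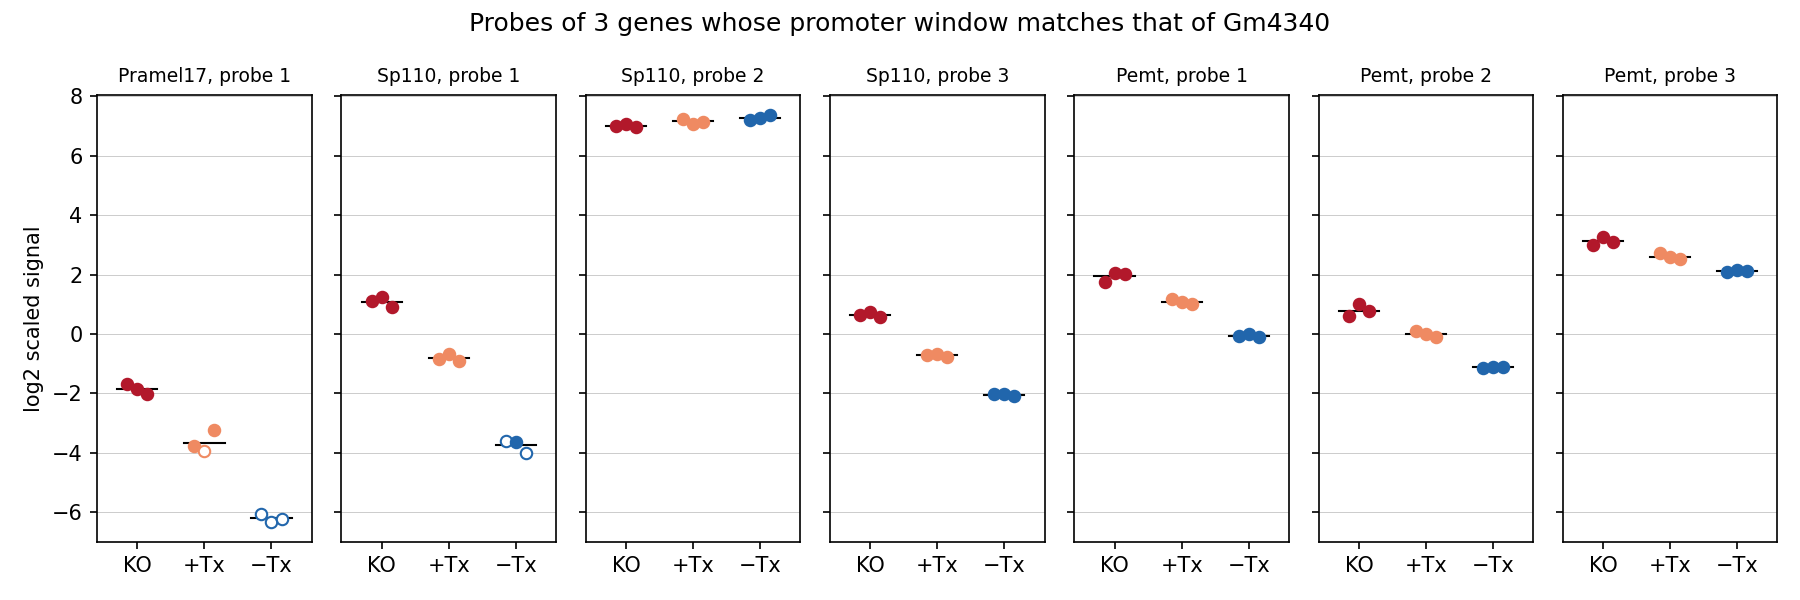
Log2 scaled signal on each array of all probes of *Pramel17*, *Sp110* and *Pemt*, whose promoter windows match that of *Gm4340*, with KO/Y, +Tx and −Tx ES cells from left to right. Open points were not well above background and black lines are group means. The bright *Sp110* probe near 7 is flat, while its other probes and *Pramel17* step down across the groups.

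*Gm16367* gave 0.10, 0.11 and 0.07 in KO/Y, -1.66, -1.88 and -1.59 in +Tx, and -5.71, -6.00 and -5.00 in −Tx ES cells, where no array was well above background. It was at least 19.0-fold higher in KO/Y and at least 5.48-fold higher in +Tx than in −Tx ES cells, and 3.48-fold higher in KO/Y than in +Tx ES cells.

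For *E330014E10Rik* the answer depended on the probe. The brightest probe gave 0.76, 0.74 and 0.78 in KO/Y, -0.62, -0.54 and -0.43 in +Tx, and -4.44, -3.78 and -4.25 in −Tx ES cells, where 1 of 3 arrays was well above background. KO/Y over −Tx was 4.91, or 30.2-fold, +Tx over −Tx was 3.63, or 12.4-fold, and KO/Y over +Tx was 1.29, or 2.44-fold. The second probe gave -1.53, -1.20 and -1.55 in KO/Y, -1.57, -2.58 and -2.40 in +Tx, and -1.95, -1.89 and -1.96 in −Tx ES cells, so that the +Tx and −Tx groups overlapped and the differences were 0.51, -0.25 and 0.76 for KO/Y over −Tx, +Tx over −Tx and KO/Y over +Tx. The third probe was well above background on all 3 KO/Y arrays, 0 of 3 +Tx and 1 of 3 −Tx arrays, with a difference of 0.87 for KO/Y over −Tx, and it was at least 1.47-fold higher in KO/Y than in +Tx ES cells. With the mean of its 3 probes the gene differed by 2.10 for KO/Y over −Tx. Probes of 2 related genes were on no −Tx array well above background. The probe of *AA792892* matched 41 of 42 aligned bases of the second one. Its fitted fold was 2.25 in KO/Y over −Tx ES cells (adjusted p = 0.0096 by limma across probes). The −Tx signals of *AA792892* lay above the level used for bounds, so this fold is no bound. *Pramel37*, whose probe matched 36 of 43 aligned bases of the third one, was at least 7.95-fold higher (adjusted p = 5.19e-08 in the same fit).

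**Figure D4:**
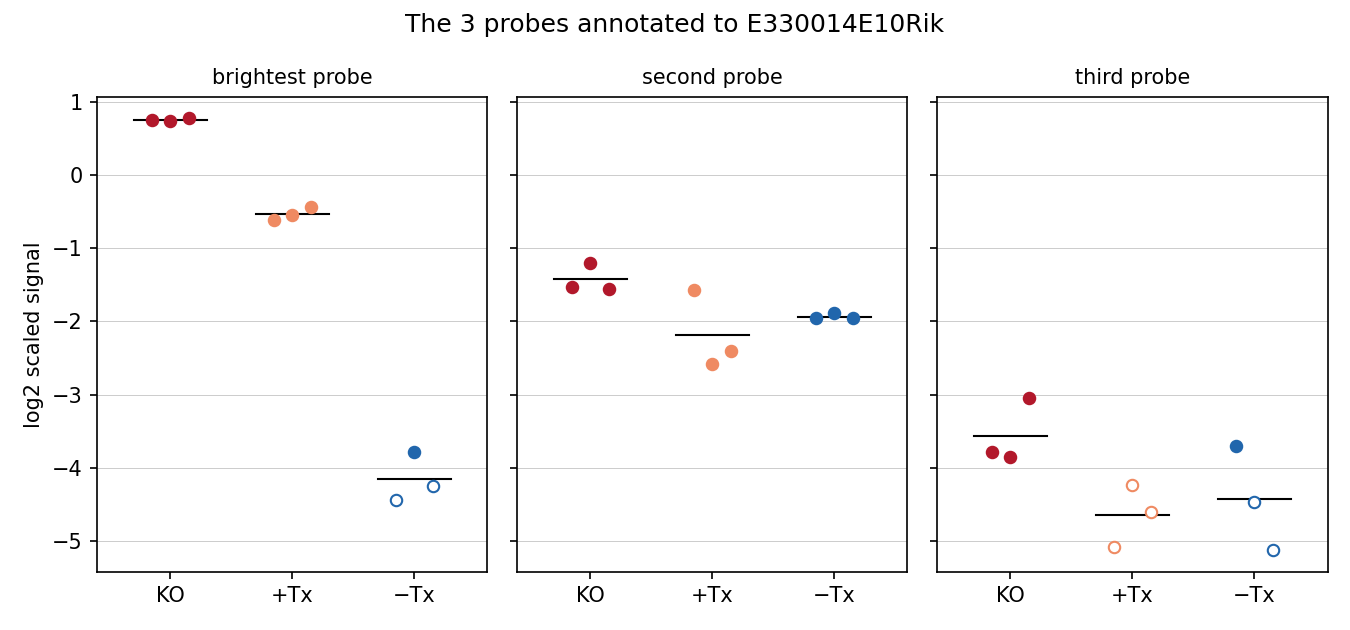
Log2 scaled signal of the 3 probes annotated to *E330014E10Rik* on each array, with KO/Y, +Tx and −Tx ES cells from left to right. Open points were not well above background and black lines are group means. Only the brightest probe separates all 3 groups.

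*D13Ertd608e*, a transcript that RefSeq lists as a miscellaneous RNA on chromosome 13, was well above background on all 9 arrays. It gave 2.93, 3.12 and 2.90 in KO/Y, 1.22, 1.11 and 1.16 in +Tx, and -2.05, -2.46 and -2.06 in −Tx ES cells. KO/Y over −Tx was 5.17, or 36.0-fold, +Tx over −Tx 3.35, or 10.2-fold, and KO/Y over +Tx 1.82, or 3.53-fold. Its probe has no position in the array annotation. A probe with no gene name matched 28 of 30 aligned bases of it, and the probe of *Gm20767* matched 24 of 26. They gave 4.89 and 4.53 for KO/Y over −Tx and averaged 6.33 and 7.05 in KO/Y ES cells. What such partial matches add to the *D13Ertd608e* signal was not tested. In the RefSeq order *D13Ertd608e* lies between *AF067063* and *Gm21358*, and of the 5 genes on each side 4 were tested. *Tcstv1*, a gene of the 2-cell stage, differed by 5.05 for KO/Y over −Tx (adjusted p = 8.07e-09). *B020031M17Rik*, which is also on the list of 2-cell genes below, differed by 0.50 (adjusted p = 0.0141) and was not called. *AF067063*, directly next to *D13Ertd608e*, differed by 0.12 (adjusted p = 0.468) and *Zfp131*, a zinc finger gene, by -0.44 (adjusted p = 0.00439).

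*Unc93a* went against the rule it was chosen by. It gave -1.56, -1.44 and -1.54 in KO/Y, -1.22, -1.55 and -1.22 in +Tx, and -5.94, -6.24 and -4.62 in −Tx ES cells, where no array was well above background. It was at least 6.27-fold higher in KO/Y and at least 7.11-fold higher in +Tx than in −Tx ES cells. KO/Y over +Tx was -0.18 ± 0.355 (SE) and the groups overlapped, so no further increase was seen in KO/Y ES cells. That SE comes from 1 spread shared by all 3 groups. The SDs were 0.0649 in KO/Y and 0.187 in +Tx, but 0.862 in −Tx ES cells, where the signal was not measured. Of the 8 members, 6 were past the limits in KO/Y against +Tx ES cells, where 2.37% of genes were, and *Gm4340* and *Unc93a* were not. This comparison was also part of the choice.

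**Figure D5:**
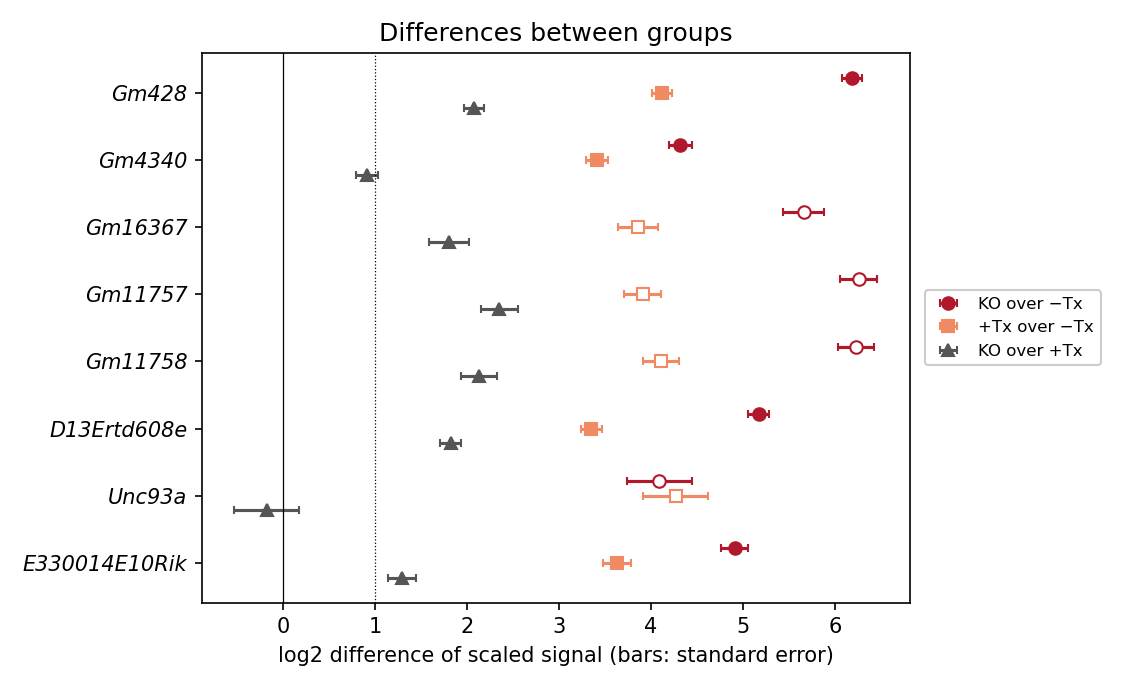
Log2 difference of scaled signal for each transcript in the 3 comparisons, with standard errors from limma's fit of 9 arrays. Open symbols mark comparisons in which the −Tx group was on no array well above background, so that their size is not measured, and the dotted line marks 2-fold. KO/Y over +Tx runs from -0.18 for *Unc93a* to 2.35 for *Gm11757*.

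The −Tx group and +Tx array 1 shared a slide, and on that slide alone the +Tx array exceeded the −Tx mean by 3.35 for *Gm4340* to 4.38 for *Unc93a*. On the other slide KO/Y exceeded +Tx by 0.88 for *Gm4340* to 2.37 for *Gm11757*, except for *Unc93a* at -0.13. With the slide as a block, which the +Tx arrays on both slides allow, KO/Y over −Tx ran between 4.23 for *Gm4340* and 6.31 for *Gm11757*, and no member moved by more than the largest SD between its arrays.

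Gene profiles were also set side by side after centring each on its mean over 9 arrays, with the root mean square of the differences as the measure of likeness. The −Tx values of *Gm16367*, *Gm11757*, *Gm11758*, *Unc93a* and *Pramel16* were not well above background and enter it as given, so the distances and the order of near genes rest in part on signals that were not measured. The genes most like *Gm4340* were *Gm8300* at 0.109 and *AA684185* at 0.131. *D13Ertd608e* had *Pramel16* at 0.175 and *Tcstv1* at 0.183, which is no order between them. Outside the members, *Pramel16* and *Tcstv1* were also nearest to *Gm428*, *Gm11757*, *Gm11758* and *Gm16367*, at 0.323 to 0.585. Other members were nearer to these: *Gm428* and *Gm11758* lay 0.251 apart, *Gm16367* 0.257 from *Gm11758*, and *Gm11757* 0.302 from *Gm428*. *E330014E10Rik* was nearest to *AA684185* at 0.207 and *Tcstv1* at 0.208. The genes nearest to *Unc93a* were *Zscan4e* at 0.565 and *Zscan4f* at 0.566, zinc finger genes of the 2-cell stage, and its nearest member was *Gm4340* at 0.617. Within groups, the deviations of the 28 pairs of members from their group means had a median r of -0.04 over 9 arrays, against 0.03 for pairs of other genes, and ranged between -0.86 and 0.99. Over the 6 KO/Y and +Tx arrays, where all members were measured, a set of arrays chosen after seeing the data, the median r was 0.50, against 0.04 for pairs of other genes with an upper quartile of 0.48, and 14 of 28 pairs were above 0.5. These pairs share 3 arrays a group, and some share probe letters.

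A list of 62 genes of the 2-cell stage held 37 others on the array, of which 34 passed the filter. Called higher were 26 of 34 (76.5%) in KO/Y against −Tx, 22 of 34 (64.7%) in +Tx against −Tx and 12 of 34 (35.3%) in KO/Y against +Tx ES cells, and 0 were lower. Over all genes, 4.72%, 1.75% and 2.37% were called higher. The median log2 differences of the 34 were 3.64, 2.27 and 0.92. With normexp background correction the counts called higher were 24, 16 and 9. Some calls rest on −Tx signals not well above background. *Tdpoz3* and *Tdpoz4*, called in +Tx against −Tx, were at least 1.22-fold and 1.3-fold higher, short of the 2-fold limit. The 4 with the largest fitted differences in KO/Y over −Tx were *Usp17lb*, a deubiquitinating enzyme gene, at 5.07, *Tcstv1* at 5.05, *Olfr376*, an olfactory receptor gene, and *Dub3*, another deubiquitinating enzyme gene, at 4.86. *Usp17lb* was well above background on 2 of 3 −Tx arrays and *Dub3* on 1 of 3. *Olfr376* was so on 0 of 3, and its fold was at least 9.56. Of the list, 8 were not called in KO/Y over −Tx, among them *Dux* at 0.38, *Zfp352* at -0.01, *Gm4850* at -0.24 and the brightest *Sp110* probe at -0.26. Families such as *Zscan4* and *Usp17l* hold several of the 34, so these need not be separate measurements. Part of the list comes from what the study itself shows of these arrays, so it is not independent evidence.

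The mean signals of lists of cell type markers differed between the groups, but not every marker followed the mean of its list. The mean log2 signal of 8 ES cell markers was 3.12 to 3.34 on KO/Y, 3.39 to 3.42 on +Tx and 3.58 to 3.63 on −Tx arrays, and all 8 were well above background on every array. *Tfcp2l1*, a transcription factor gene of naive ES cells, was the 1 of 8 called lower, with differences of -1.19 for KO/Y over −Tx (adjusted p = 1.56e-06) and -1.10 for +Tx over −Tx (adjusted p = 6.69e-06). *Klf4* was higher by less than 2-fold, by 0.66 and 0.58 in the same order (adjusted p = 4.55e-05 and 0.000335 in limma's fit). For 12 fibroblast markers, which feeder cells would carry, the mean signal was 3.56 to 3.73 on KO/Y, 3.20 to 3.37 on +Tx and 2.93 to 3.0 on −Tx arrays, with 1 of 12 called higher in KO/Y against −Tx. For 8 primitive endoderm markers it was -0.27 to 0.13, -2.04 to -1.91 and -2.42 to -2.14, with 7 of 8 called higher in KO/Y and 0 of 8 in +Tx against −Tx. Well above background on all arrays of the group were 8 of these markers in KO/Y, 4 in +Tx and 6 in −Tx ES cells. For 5 trophectoderm markers it was 0.22 to 0.29, -0.99 to -0.77 and -1.41 to -1.07, with 4 of 5 and 1 of 5 called higher. In +Tx over −Tx the 1 called was *Tfap2a* at 1.69, while *Krt8* and *Krt18* were lower, at -0.40 and -0.28. The endoderm marker *Hnf4a* was also lower there, at -0.83, and was on no +Tx array well above background. The part of these cell types in the members' values was not tested.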

How the data were processed

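The deposited scanner files hold the processed Cy3 intensity of each spot, which the authors made with Agilent Feature Extraction 10.7.3.1. A deposited signal per group was used only as an alternative, since the sources used here give no settings for the authors' NIA software. With R 4.3.3 and version 1.17.8 of data.table, log2 intensities were scaled to the 75th percentile of their array without outlier spots. A probe had to be well above background on all arrays of 1 group or more, and each gene was taken from its brightest probe. The 22443 genes were fitted with limma 3.58.1 (lmFit, eBayes) over 9 arrays with Benjamini-Hochberg adjustment. Calls needed over 2-fold and an adjusted p under 0.05. Array numbers, 1 to 3 in a group, follow slide position. Promoter windows and probes were compared with blastn 2.17.0. For a gene whose probes disagree, each is given.

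The members and lists were chosen with earlier results of these data known. Named genes were the members, *Nr0b1*, for each member the 2 genes outside the members of most similar profile, and up to 4 called genes a list with the largest change. Genes with matching promoters, probe relatives, RefSeq neighbours and further probes were added after the values were seen. The method was checked on simulated data, where of 100 genes changed 3-fold 92, 93 and 91 were called in KO/Y over −Tx, +Tx over −Tx and KO/Y over +Tx. Of 100 genes changed 1.5-fold, 53, 48 and 55 had an adjusted p under 0.05, and 2, 1 and 2 unchanged genes were called. The simulated noise was normal and independent, with no background floor or slide effect, so dim or near-identical probes were not tested. Alternatives are given under the closing section. The precision of each value is limited by 3 arrays per group.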

Additional observations from a re-analysis of the deposited data

How the results depend on the processing

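Normexp background correction with an offset of 50 shortened the differences of all 8 members in KO/Y over −Tx and +Tx over −Tx. Their median was then 2.98 for KO/Y over −Tx, 1.68 for +Tx over −Tx and 1.5 for KO/Y over +Tx, and none but that of *Unc93a* in KO/Y over +Tx was below 0 (-0.09). It called 415 genes higher and 267 lower in KO/Y over −Tx, 154 and 52 in +Tx over −Tx, and 195 and 61 in KO/Y over +Tx, against 1059 and 638, 392 and 170, and 532 and 235. Requiring probes well above background on all 9 arrays tested fewer genes and gave 586 higher in KO/Y over −Tx, 209 and 93 in +Tx over −Tx, and 229 and 149 in KO/Y over +Tx, with 17 and 6 of the 2-cell list higher in KO/Y over −Tx and over +Tx. This filter left *Gm16367*, *Gm11757*, *Gm11758* and *Unc93a* untested. The same filter, and a fit of only the 6 arrays compared, left *E330014E10Rik* to its second probe. That probe gave 0.51 in KO/Y over −Tx and -0.25 in +Tx over −Tx. The mean of the gene's probes gave 2.1 in KO/Y over −Tx and 1.06 in +Tx over −Tx. Quantile normalization, single slides, kept outlier spots and the authors' table moved no member's difference by more than the largest SD between its arrays. Leaving out 1 array gave 1032 to 1072, 384 to 409 and 488 to 554 genes higher, 630 to 674, 159 to 205 and 229 to 259 lower, and 26 to 27, 21 to 22 and 11 to 15 of the 2-cell list. The neighbours had 0 called higher throughout. No paired analysis was possible because the replicate numbers of the labels are not tied to arrays. The comparison of protein relatives was not run, as no protein sequences were used here. A probe below background limits a fold to a bound.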
